A study of Mus musculus with 30 samples.

Results

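The members of the circadian clock and its outputs measured here, 10 genes in all, were Per1, Per2, Per3, Cry2, Nr1d1, Nr1d2, Dbp, Tef, Arntl and Clock, followed in the mouse hippocampus. All probes that the platform annotation assigns to these symbols were taken, which gave 18 of the 25697 probes on the array. Of these, 15 were detected often enough to be tested, out of 12588 such probes, and all 10 genes kept at least 1 probe. The tissue came from 30 male NMRI mice aged 12 weeks, an outbred stock. Every mouse had been phenotyped for its response to phenytoin, a sodium channel blocker given against seizures, under 6 Hz stimulation. In the resistant group phenytoin failed (15 mice), in the responder group it worked (15 mice), and both share strain, sex, age and the seizure test itself. As the groups were formed by that test, the trait and whatever happened to the animals in the test cannot be told apart. The time of day at which each hippocampus was taken is not given in the sources used here.

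A clock of this kind is a feedback loop of transcription that runs in most tissues. The products of Clock and Arntl, the latter also called BMAL1, bind together to E-box motifs and switch on Per, Cry, Nr1d1, Nr1d2, Dbp and Tef. PER and CRY proteins then block that pair, the nuclear receptors encoded by Nr1d1 and Nr1d2 (REV-ERB alpha and beta) repress Arntl through ROR elements, and DBP and TEF pass the rhythm to further genes through D-boxes. Where the loop runs, Arntl transcripts therefore peak at a time of day when those of the repressors and outputs are low. Clock transcripts usually vary less. In the hippocampus the loop has been tied to daily changes in excitability and memory, and Per1 and Per2 are also induced acutely by light, stress hormones and neuronal activity. Here the 4 Per and Cry genes and the 2 Nr1d genes are called the negative limb, and Dbp and Tef the outputs.

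The start regions of the members show which of these motifs lie close to the gene. RefSeq start regions (build GRCm38.p6, 250 bases before to 50 bases after each start) were found for 9 of the 10 members, 14 windows in all, and Per2 had no entry. They were searched on both strands for the E-box CACGTG, the noncanonical E-box CACGTT, the D-boxes TTATGTAA and TTACGTAA, the ROR element cores TAGGTCA and TGGGTCA, and the cAMP response element TGACGTCA. No searched motif is contained in another. The E-box is present in 7.15% of all 32851 windows in the table, the noncanonical form in 4.68%, a D-box in 1.06%, a ROR core in 6.45% and the cAMP response element in 1.79%. Among the members, the E-box was found in 1 of 2 Per1 windows and in both Tef windows. Cry2 and Nr1d1 hold the noncanonical form, Per3 holds 2 copies of a D-box, and 1 of 2 Arntl windows holds a ROR core. The other windows, those of Nr1d2, Dbp and Clock among them, had no match to these letters. Shown here are 1 window for each kind of motif found, with the match in capitals, each read 5′ to 3′ on the strand of its gene. The Per1 window is chr11:69098699-69098998 on the plus strand, with its E-box beginning at position -166 from the start. Per3 is at chr4:151044616-151044915 on the minus strand, with D-boxes at -205 and -158. Nr1d1 is at chr11:98775328-98775627 on the minus strand, with the match at -28, written as the reverse complement of the searched letters. Arntl is at chr7:113207261-113207560 on the plus strand, with the ROR core at 30, past the start.
Per1: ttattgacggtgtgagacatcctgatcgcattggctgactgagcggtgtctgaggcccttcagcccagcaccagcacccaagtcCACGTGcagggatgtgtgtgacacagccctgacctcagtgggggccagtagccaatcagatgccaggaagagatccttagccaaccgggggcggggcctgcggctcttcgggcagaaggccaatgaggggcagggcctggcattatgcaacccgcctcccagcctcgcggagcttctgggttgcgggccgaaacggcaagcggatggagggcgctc
Per3: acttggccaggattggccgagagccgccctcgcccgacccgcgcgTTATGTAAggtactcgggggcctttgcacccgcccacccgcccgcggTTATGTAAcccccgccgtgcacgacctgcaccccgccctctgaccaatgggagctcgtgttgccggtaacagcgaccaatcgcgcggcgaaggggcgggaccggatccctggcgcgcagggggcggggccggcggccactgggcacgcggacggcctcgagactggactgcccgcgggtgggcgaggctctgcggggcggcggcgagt
Nr1d1: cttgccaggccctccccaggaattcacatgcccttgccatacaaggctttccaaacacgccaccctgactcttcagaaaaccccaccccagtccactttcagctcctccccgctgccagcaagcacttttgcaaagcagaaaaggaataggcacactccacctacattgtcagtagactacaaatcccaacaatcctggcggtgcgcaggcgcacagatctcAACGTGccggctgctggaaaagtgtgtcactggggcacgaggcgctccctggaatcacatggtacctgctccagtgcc
Arntl: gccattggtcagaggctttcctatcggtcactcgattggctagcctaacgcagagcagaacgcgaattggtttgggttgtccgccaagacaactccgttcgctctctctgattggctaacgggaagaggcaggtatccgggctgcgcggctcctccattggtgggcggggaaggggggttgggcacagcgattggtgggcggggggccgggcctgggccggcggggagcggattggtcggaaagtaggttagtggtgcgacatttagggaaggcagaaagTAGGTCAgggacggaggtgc
A match describes these letters and is not a measured binding site.

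Between 12330 and 13223 probes were detected on each array, with medians of 12822 in resistant and 12886 in responder mice. Of 13 hippocampal neuron markers, 9 were detected often enough to be kept, and Neurod6, Zbtb20, Lct and Dsp were not. Those 9 averaged 10.02 ± 0.19 in resistant mice, against 9.96 ± 0.21 in responders (SD, n = 15 each). RNA of the choroid plexus, the secretory epithelium beside the hippocampus, varied widely: the mean of its 12 kept markers ran from 5.59 to 9.68 in resistant and from 6.02 to 10.37 in responder mice. All levels are normalised log2 signals, differences are log2 units, resistant minus responder, and levels of different probes are not set against each other. In whole tissue, fewer cells of a type and less RNA per cell cannot be told apart.

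The first comparison asked whether clock transcripts differ between resistant and responder mice. Per2, a core repressor of the clock, stood highest among the members in size and in rank, but 0 of the 15 member probes passed the threshold of an adjusted p of 0.05 (limma, Benjamini-Hochberg over 12588 probes), against 0.00794% of all probes (1 probe). At an unadjusted p under 0.05, 4 member probes were higher in resistant mice and 0 were lower, against 4.25% of all probes higher and 3.3% lower. These 4 are the 2 kept probes of Per1 and the 2 kept probes of Per2, so they stand for 2 genes. Over all 15 probes the estimate was above 0 for 10, against 53.8% of all probes. With each array scaled to its median in place of quantile normalisation, the counts were 11 of 15 and 65.6%.

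**Figure D1:**
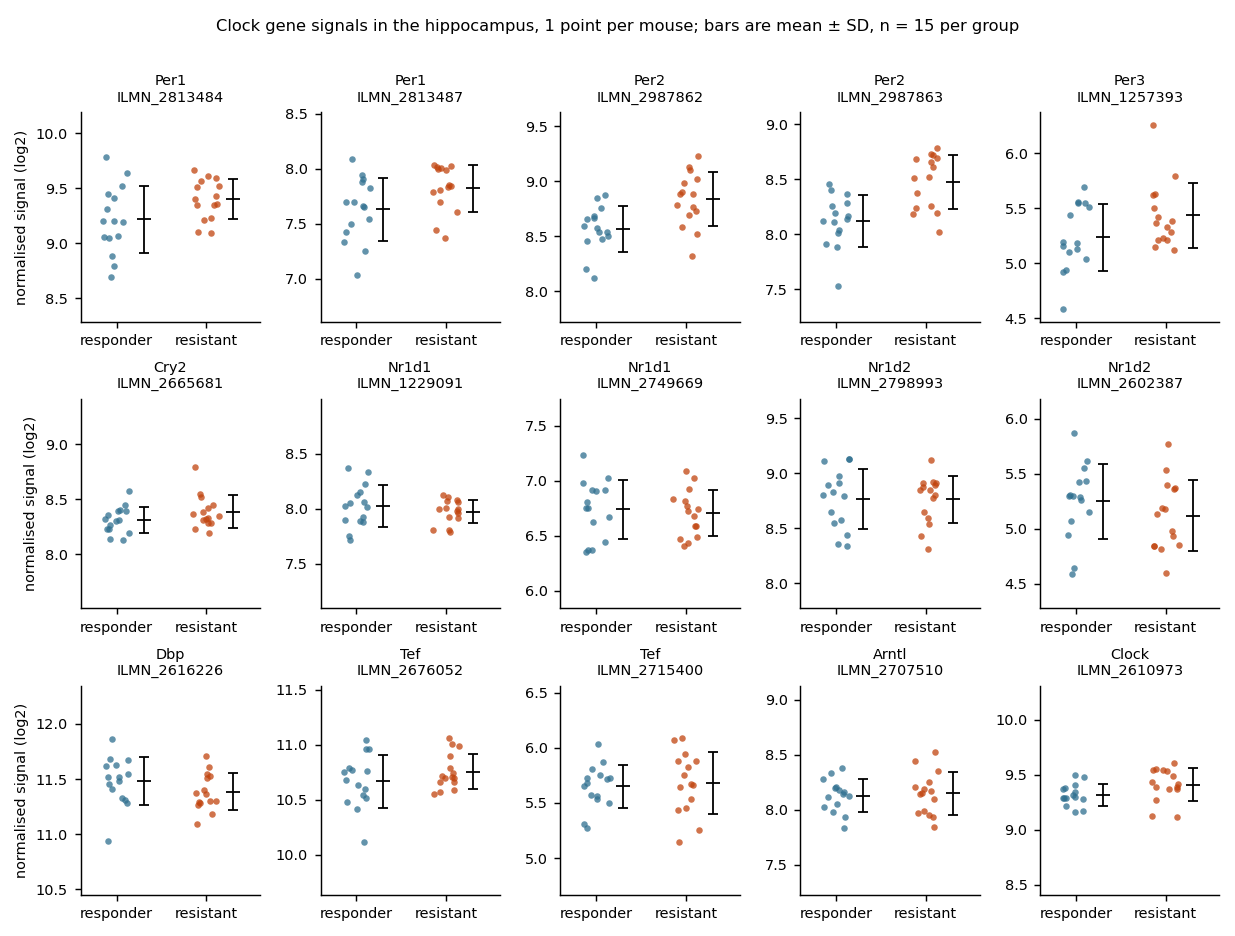
Normalised log2 signal of each kept clock gene probe (vertical axis, spanning the same number of log2 units in every panel) in responder (blue) and resistant (red) mice, 1 point per mouse, with the mean ± SD beside the points (n = 15 per group). The Per2 panels show resistant points reaching above the highest responder for 8 and 9 of 15 mice, while in every panel the groups overlap.

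Per1 and Per2 encode partners in the repressor complex. On the brightest Per2 probe, ILMN_2987862, resistant mice ran from 8.32 to 9.23 with a median of 8.88, and responders from 8.12 to 8.87 with a median of 8.57. The groups overlapped, although 13 of 15 resistant mice lay above the responder median and 8 lay above the highest responder. The difference was 0.27 ± 0.08 (SE), or 1.21-fold (limma unadjusted p = 0.0018, adjusted p = 0.376). The second probe, ILMN_2987863, ran from 8.02 to 8.78 in resistant and from 7.53 to 8.46 in responder mice, with medians of 8.52 and 8.14. It differed by 0.35 ± 0.08 (SE), or 1.28-fold (limma unadjusted p = 0.000188, adjusted p = 0.263), with 9 of 15 resistant mice above the highest responder. These probes moved together across mice (r = 0.88, n = 30, group-centred). The third Per2 probe, ILMN_1258523, was detected on 1 of 30 arrays and gives no measurement.

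Per1 lay between 9.10 and 9.67 in resistant mice, with a median of 9.40, and between 8.70 and 9.78 in responders, with a median of 9.20 (ILMN_2813484). No resistant mouse exceeded the highest responder. Instead, 6 of 15 responders lay below the lowest resistant mouse. The difference was 0.18 ± 0.09 (SE; limma unadjusted p = 0.0435, adjusted p = 0.653). The other Per1 probe gave 0.19 (limma unadjusted p = 0.0385, adjusted p = 0.652), and both probes ran in parallel across mice (r = 0.88, n = 30).

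Per3, a weaker member of the family that is not required for rhythm in mice, was near the detection limit. Its probe was detected on 13 of 15 resistant and 9 of 15 responder arrays. Levels ran from 5.12 to 6.26 with a median of 5.36 in resistant and from 4.58 to 5.69 with a median of 5.19 in responder mice, largely overlapping. Per3 differed by 0.20 ± 0.11 (SE; limma adjusted p = 0.715). That difference was 0.063 without background correction or with the authors' processed values, 0.31 in sample numbers 1 to 16 and 0.07 in numbers 17 to 30. Cry2, which encodes the light-independent cryptochrome that works with the PER proteins, ran from 8.19 to 8.79 in resistant and from 8.13 to 8.57 in responder mice. Its difference of 0.07 ± 0.05 (SE) did not pass (limma adjusted p = 0.79).

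The nuclear receptor genes and the output Dbp lay at or below 0. Nr1d1 medians were 8.00 in resistant and 8.02 in responder mice on the brighter probe, with ranges of 7.79 to 8.13 and 7.72 to 8.37, so the resistant range lay inside the responder range. Its difference was -0.05, with a 95% interval of -0.17 to 0.07, and the dimmer probe gave -0.04. For Nr1d2 the brighter probe differed by -0.0042 (interval -0.18 to 0.17), with medians of 8.85 and 8.80. The dimmer Nr1d2 probe, detected on 16 of 30 arrays, differed by -0.13 (limma adjusted p = 0.856) and did not follow the brighter one across mice (r = 0.12, n = 30).

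Dbp encodes the D-box binding protein whose transcript usually swings widely over the day. Resistant mice ran from 11.09 to 11.71 with a median of 11.36, and responders from 10.94 to 11.86 with a median of 11.52. The ranges overlapped almost fully, but 4 of 15 resistant mice lay above the responder median. The difference was -0.10 (interval -0.24 to 0.04; limma adjusted p = 0.772). Tef, a relative of Dbp, differed by 0.09 ± 0.07 (SE) on the brighter probe, from ranges of 10.55 to 11.06 and 10.11 to 11.05, and by 0.03 on the dimmer one.

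Arntl and Clock form the activating arm. Arntl had medians of 8.16 in resistant and 8.15 in responder mice, with ranges of 7.84 to 8.52 and 7.83 to 8.38. Its difference of 0.02 had an interval of -0.11 to 0.15. Clock ran from 9.11 to 9.60 in resistant and from 9.16 to 9.49 in responder mice, with medians of 9.41 and 9.30. Clock differed by 0.09 ± 0.05 (SE; limma adjusted p = 0.688). For 5 of 15 resistant mice it exceeded the highest responder. The other Clock probes were detected on 3 and 0 of 30 arrays and give no measurement.

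**Figure D2:**
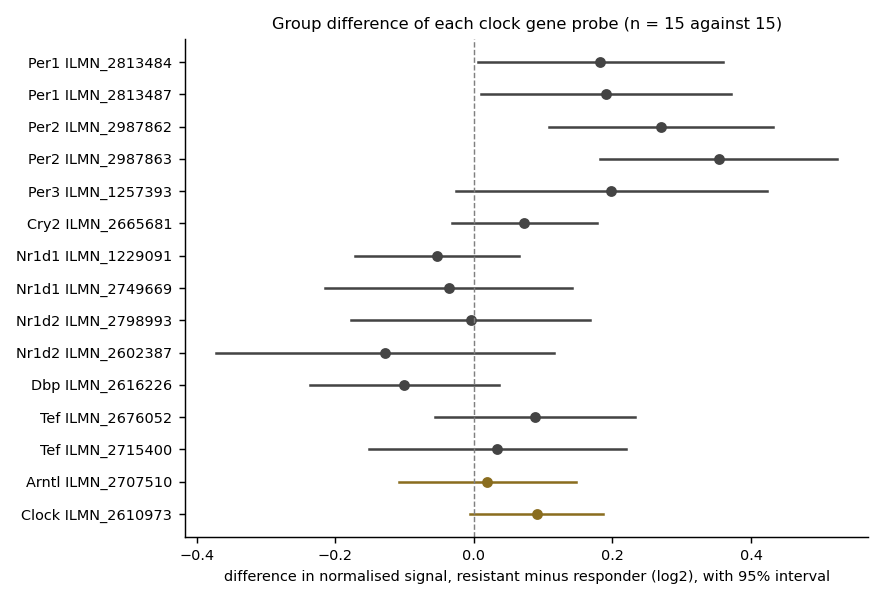
Difference in normalised log2 signal, resistant minus responder (horizontal axis), for each of the 15 kept probes, as the limma estimate (point) with its 95% interval (line), grey for the negative limb and outputs and brown for Arntl and Clock. The intervals of both Per1 and both Per2 probes lie above 0, and all others include 0.

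The size of these differences can be read against the spread among mice of the same group. Within-group SDs of the member probes ran from 0.13 for Clock, lower than in all but 19.1% of kept probes, to 0.33 for the dim Nr1d2 probe, and the median over all kept probes was 0.20. The SD of the brighter Per1 probe in resistant mice was 0.59 of that in responders. The ratio was 0.56 for the brighter Nr1d1 probe and 1.50 for Clock, the lowest and the highest among the member probes. The dimmer probes gave 0.74 for Per1 and 0.79 for Nr1d1. No test of these ratios was made. Probes of the same gene moved together for Per1 and Per2 (r = 0.88 for each, n = 30), less for Nr1d1 (r = 0.39) and little for Tef (r = 0.14) and Nr1d2 (r = 0.12), where the second probe was dim for Tef and Nr1d2.

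The second comparison asked how the negative limb and the outputs run against Arntl and Clock among the mice, as a shared phase of the loop would set them in opposition. With group differences removed, all 8 negative limb and output genes had a negative correlation with Arntl across the 30 mice, with a median r of -0.17 and a range from -0.41 for Nr1d1 to -0.037 for Per3. With median scaling of the arrays 6 of 8 were negative, the slopes of Cry2 and Tef turning to 0.024 and 0.048, where 28.9% of all probes were negative against 50.3% in the main setting. Slopes on Arntl also turned with the replicate number as a block, to 0.34 for Per2 and 0.014 for Tef. With the sample number as a covariate they turned to 0.021 for Per2 and 0.083 for Per3. By probe, 12 of 13 had a slope on Arntl below 0, where 49.7% of all probes had a slope above 0. The exception was the dim Nr1d2 probe, with a slope of 0.43 (limma adjusted p = 0.971). Single relations were weak: 0 of the 14 member probes tested passed at an adjusted p of 0.05 (limma, over 12587 probes, of which 0% passed). At an unadjusted p under 0.05 there were 2 member probes, both negative, against 2.95% of all probes negative. The 8 genes share the same mice and arrays, so their signs are not independent of each other.

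Nr1d1, whose product represses Arntl directly, had the lowest correlation. Pearson r was -0.41 (permutation p = 0.0172, 100000 resamples, two-sided) and Spearman rho was -0.45 (permutation p = 0.0134, n = 30). Nr1d1 was picked as the lowest of 8 genes, and these permutation p-values do not allow for that choice. Without the 2 mice farthest from the median Arntl level r was -0.46. The slope was -0.37 log2 units of Nr1d1 per log2 unit of Arntl (limma unadjusted p = 0.033, adjusted p = 0.906), and 1.73% of all kept probes had a lower r with Arntl. With the replicate number as a block the slope was -0.17 (limma unadjusted p = 0.382), and the count of member probes at an unadjusted p under 0.05 went from 2 to 0. In the first 16 sample numbers r was -0.55 and in the rest it was -0.25. The dimmer Nr1d1 probe had a slope of -0.15 (limma adjusted p = 1).

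Dbp came next, with r = -0.34 (permutation p = 0.0647) and rho = -0.31 (permutation p = 0.0964). Its r was -0.19 without the 2 mice at the ends of the Arntl range, so much of that relation rests on them. Per1 had r = -0.27 (permutation p = 0.125), and its dimmer probe had the steepest slope among the members, -0.64 (limma unadjusted p = 0.0136, adjusted p = 0.89). Per2 had r = -0.09 (permutation p = 0.657), so the member with the largest group difference was among those with an r nearest 0. With Arntl as a covariate the Per2 group difference was 0.27 (limma adjusted p = 0.361), the same size as without it.

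**Figure D3:**
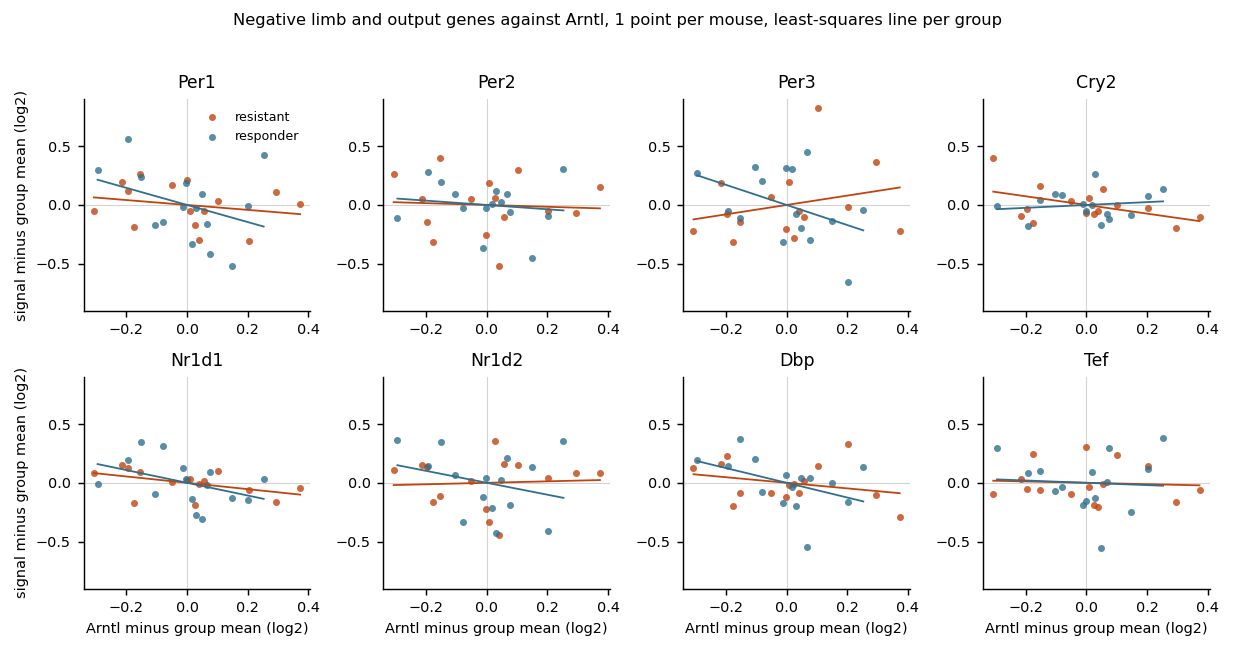
Normalised log2 signal of each negative limb and output gene (vertical axis) against that of Arntl (horizontal axis), both minus the group mean, 1 point per mouse, resistant in red and responder in blue, with a least-squares line per group. Nr1d1 and Dbp slope down in both groups, Per3 slopes up in resistant and down in responder mice, and the points scatter widely around every line.

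Clock stood opposite only some of the same genes. Arntl and Clock themselves had r = 0.33 (permutation p = 0.0974, n = 30), with 0.32 in resistant and 0.36 in responder mice. Of the 8 negative limb and output genes, 4 had a negative and 4 a positive r with Clock, from -0.25 for Dbp to 0.26 for Nr1d2. Nr1d1 (r = -0.24) and Dbp were on the negative side for both Arntl and Clock. The dimmer Nr1d1 probe had a slope of -0.65 on Clock, and the dim Nr1d2 probe 0.72 (limma adjusted p = 0.999 for each). None of the 14 member probes passed on Clock at an adjusted or an unadjusted p under 0.05 (limma; 0% and 3.65% of all probes).

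Taken within each drug-response group, negative signs against Arntl were the more common in both. In resistant mice 6 of 8 genes had a negative r with Arntl (median -0.15), and in responders 7 of 8 did (median -0.31). Among responders, Per1, Per2, Nr1d1, Nr1d2 and Tef were negative in sample numbers 1 to 16 and positive in 17 to 30. There Nr1d1 went from -0.74 to 0.04 and Per2 from -0.65 to 0.74. Per3 and Dbp were negative in both parts, and Cry2 was positive in both. In resistant mice Per2, Dbp and Tef changed sign between the parts. Nr1d1 had r = -0.48 (permutation p = 0.072) in resistant and -0.42 (permutation p = 0.122) in responder mice, 15 in each. Per3 had r = 0.26 in resistant and -0.41 in responder mice, and Cry2 had r = -0.48 in resistant and 0.15 in responder mice. The Cry2 value in resistant mice was -0.17 without the 2 mice farthest from the median Arntl level (rho = -0.28 with all 15), so it rests on those mice. The difference in slope between the groups was tested in the limma model for all 14 member probes. None passed at an adjusted p or at an unadjusted p under 0.05, against 0% and 10.6% of all probes. Per3 came nearest with a slope difference of 1.25 (limma unadjusted p = 0.0721, adjusted p = 0.525). Of the 13 negative limb and output probes, 11 had an estimate above 0, a slope higher in resistant than in responder mice, where 49.1% of all probes were above 0. Both probes of a gene count separately here, and the intervals are wide, with a median width either side of 0.92 over all probes.

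Among themselves the negative limb and outputs ran mostly in parallel. Of 28 gene pairs, 26 had a positive r across the 30 mice, with a median of 0.18, while over all pairs of kept probes 50% were positive (24 of 28 and 61.1% with median scaling). The counts were 22 of 28 in resistant and 24 of 28 in responder mice. The strongest pair was Per1 with Per2, at r = 0.49 (permutation p = 0.00478) and rho = 0.37 (permutation p = 0.0462). This pair was picked as the highest of 28, and its permutation p-values do not allow for that choice. The r of Per1 with Per2 was 0.34 without the 2 mice at the ends of the Per2 range. Its slope did not pass over all probes (limma adjusted p = 0.231, with 0 of 13 member probes passing, against 0.0318% of all probes). Within groups that r was 0.40 (permutation p = 0.135) in resistant and 0.59 (permutation p = 0.0188) in responder mice. Nr1d2 with Dbp (r = 0.41), Per2 with Cry2 (r = 0.37), Per1 with Nr1d2 (r = 0.36) and Nr1d1 with Dbp (r = 0.35) were next, and the negative pairs were Cry2 with Nr1d2 (r = -0.13) and Cry2 with Per3 (r = -0.08). In all, 105 correlations with Arntl, Clock, Per2 or the sample number were computed over the 3 sets of mice (all, resistant, responder), and the limma p-values beside them are adjusted over all probes. Those of the 28 pairs that do not include Per2 are not in this count.

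**Figure D4:**
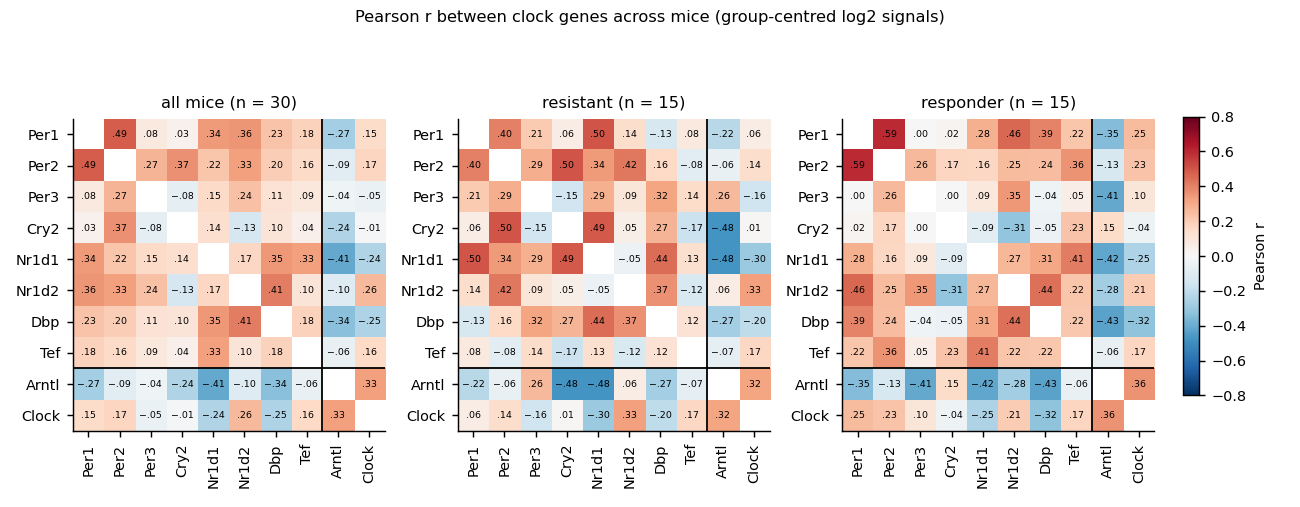
Pearson r between each pair of the 10 clock genes (rows and columns, 1 probe per gene, group-centred log2 signals) in all 30 mice, in resistant mice and in responder mice, red for positive and blue for negative. The black lines set off Arntl and Clock: the upper left block is mostly red, and the Arntl column is blue for all 8 genes in the left panel (6 of 8 with median scaling). Not all 8 slopes on Arntl stayed negative with the replicate block or with the sample number as a covariate.

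The third comparison used the sample number. Each sample's description in the labels ends in a number from 1 to 30, odd for resistant and even for responder mice, so that the groups alternate along it. What the number orders is not given in the sources used here. As clock transcripts vary with time of day, their relation to the number was fitted with group as a covariate. Per2 rose with the number: its brightest probe had a slope of 0.0163 log2 units per number, or 0.47 over 29 steps (limma unadjusted p = 0.000101, adjusted p = 0.0195, and 0.0589 with median scaling). It was the only member probe of 15 to pass, against 1.19% of all probes (150 of 12588). At an unadjusted p under 0.05, 4 member probes had a positive slope and 0 a negative one, against 8.31% and 6.59% of all probes: both Per2 probes, Per3 and the brighter Nr1d2 probe.

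Across the 30 mice Per2 and the number had r = 0.64 (permutation p = 0.00017) and rho = 0.64 (permutation p = 0.00021), and r = 0.67 without the end numbers. Within the first 16 numbers r was 0.40 and within the rest 0.75. In resistant mice r was 0.82 (permutation p = 0.00019) and rho 0.86, with a slope of 0.0226 per number on the brightest probe (limma adjusted p = 0.0676). In responders r was 0.44 (permutation p = 0.105), with a slope of 0.0101 (limma adjusted p = 0.496). The difference between those slopes, 0.0124, did not pass (limma unadjusted p = 0.0918, adjusted p = 0.922).

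Per3 had r = 0.51 with the number (permutation p = 0.00399; limma adjusted p = 0.13). In responders r was 0.73 (permutation p = 0.00232). In resistant mice it was 0.29 (permutation p = 0.298), and -0.04 without samples 1 and 29. The difference between those slopes did not pass (limma unadjusted p = 0.188, adjusted p = 0.929). Nr1d2 had r = 0.41 (permutation p = 0.029; limma adjusted p = 0.249), while its dim probe ran the other way (slope -0.0085, limma adjusted p = 0.586). Dbp had r = 0.06 over all mice but 0.49 without samples 1 and 30, the highest resistant and the lowest responder mouse for this gene, so its relation to the number turns on those 2 arrays. Arntl (r = -0.16, permutation p = 0.405) and Clock (r = 0.06, permutation p = 0.765) did not pass either (limma adjusted p = 0.733 and 0.924).

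**Figure D5:**
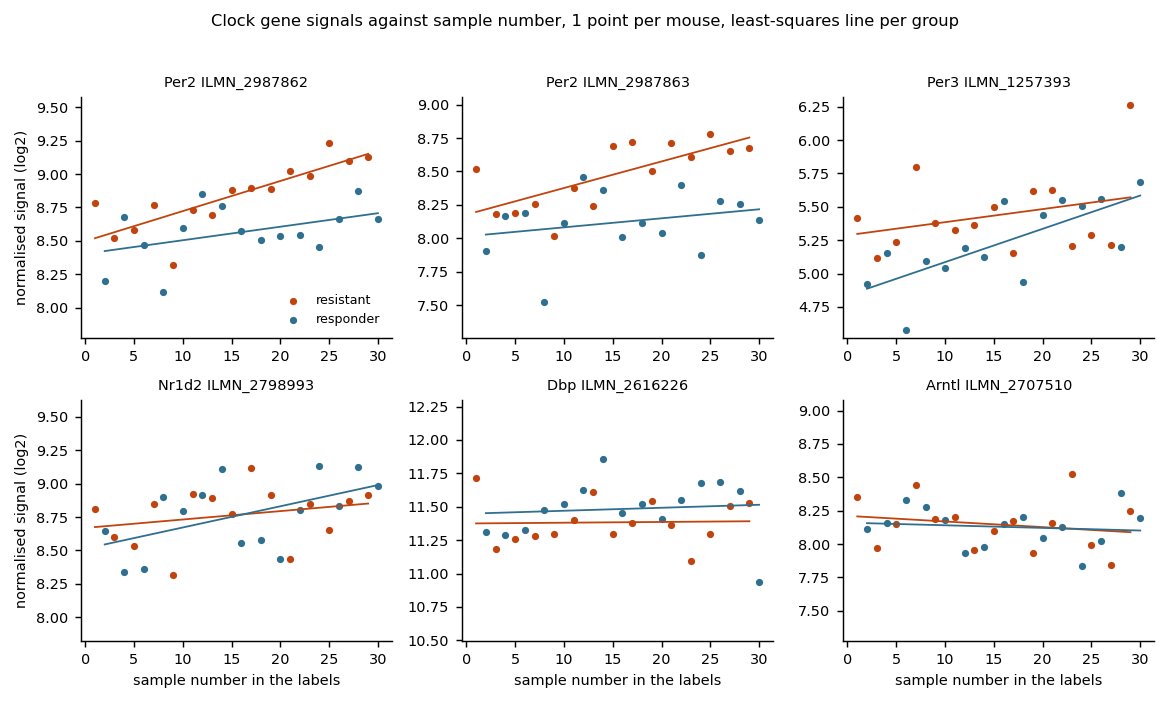
Normalised log2 signal (vertical axis) of both Per2 probes, Per3, Nr1d2, Dbp and Arntl against the sample number in the labels (horizontal axis, 1 to 30), 1 point per mouse, resistant in red and responder in blue, with a least-squares line per group. Per2 climbs with the number in both groups, more steeply in resistant mice, a difference in slope that did not pass. On both Per2 probes the groups do not overlap in numbers 17 to 30, and resistant sample 15 also lies above every responder. Arntl is flat.

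As Per2 rose with the number, the group difference was also taken with the number as a covariate and within each part of the series. With the number as a covariate it was 0.29 (limma adjusted p = 0.133) and 0.37 (limma adjusted p = 0.0592) on the 2 probes, 0 of 15 members passed, and 0.0238% of all probes did. In the first 16 numbers, the brightest probe ran from 8.32 to 8.88 in 8 resistant and from 8.12 to 8.85 in 8 responder mice, so the groups overlapped. The difference there was 0.13 (limma adjusted p = 0.877), and 0 member probes passed (0% of all probes). In numbers 17 to 30, the 7 resistant mice ran from 8.89 to 9.23 and the 7 responders from 8.46 to 8.87 without overlap. The second probe did not overlap there either, with 8.51 to 8.78 against 7.88 to 8.40. Every resistant mouse exceeded every responder for these 2 of 15 member probes in that part, against 0.0636% of all probes. The differences were 0.43, or 1.35-fold (limma adjusted p = 0.0692), and 0.51, or 1.42-fold (limma adjusted p = 0.0324), and the second was the only member probe to pass, against 0.0238% of all probes. The difference between the parts was not tested as such, beyond the difference in slope given above.

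Other measures were set against Per2. Of 20 listed choroid plexus markers 12 were kept, and all 12 were lower in resistant mice, where 53.8% of all probes had an estimate above 0. These markers share a tissue and the same arrays, so their signs are not independent of each other. Their mean was 7.74 ± 1.38 in resistant against 8.56 ± 1.77 in responder mice (SD, n = 15 each), a difference that was not tested. Per2 had r = -0.41 with this marker mean (limma adjusted p = 0.211). Cry2 had r = -0.44 (limma adjusted p = 0.221), and 0 of 15 members passed on this marker mean, against 4.69% of all probes. With the marker mean as a covariate the Per2 group difference was 0.22 (limma adjusted p = 0.581). Rbm3 and Cirbp, RNA-binding proteins induced by cold that follow body temperature, were lower in resistant mice by estimates of -0.44 (limma adjusted p = 0.0888) and -0.28 (limma adjusted p = 0.178). Their r with Per2 was -0.36 and -0.38, and neither slope on Per2 passed (limma adjusted p = 0.389 and 0.38). With the sample number in the model these were 0.915 and 0.885 (limma adjusted p). Both had negative slopes on the sample number (limma adjusted p = 0.227 and 0.247). Their part in the Per2 result was not tested.

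Stress hormones act on Per1 and Per2 through the glucocorticoid receptor. A list of 7 genes held targets of that receptor and the stress-hormone receptor genes Nr3c1 and Nr3c2. Nr3c1 was not detected often enough, and Nr3c2 and the target Zbtb16 had no probe. The 4 measured genes were all targets, 2 higher and 2 lower in resistant mice, with 0 past an adjusted or an unadjusted p under 0.05. Tsc22d3 (GILZ, an early target of the glucocorticoid receptor) had r = 0.60 with Per1 and 0.61 with Per2 over 30 mice. The other measured targets were lower, with r = 0.55 and 0.39 for Cdkn1a, 0.20 and 0.22 for Sgk1, and -0.24 and 0.02 for Fkbp5, each with Per1 first and Per2 second. The slope of Tsc22d3 on Per2 had a limma adjusted p of 0.0813, and 0.486 with the sample number in the model. Of 6 immediate early genes of neuronal activity, 5 were measured, 1 with an estimate above 0 and 4 below, and Junb alone was lower at an unadjusted p under 0.05 (-0.31, limma unadjusted p = 0.0241, adjusted p = 0.617). Egr1 had r = 0.55 with Per1, and Fos had r = 0.50 with Dbp. These correlations are descriptions over the same arrays.

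The rest of the clock was read from a list of 20 further genes. Of these, 2 had no probe, 7 were not detected often enough, Cry1, Npas2 and Hlf among them, and 11 were measured. Estimates were above 0 for 8 and below 0 for 3, with a median of 0.0065 against 0.0070 for all probes, and 0 passed at an adjusted p of 0.05. At an unadjusted p under 0.05, Nfil3, a repressor at D-boxes, was at 0.13 (limma adjusted p = 0.657) and Rorb, an activator at ROR elements, at -0.21 (limma adjusted p = 0.657). Ciart, a repressor of the CLOCK and BMAL1 pair, was at -0.15 (limma adjusted p = 0.719) and had r = 0.45 with Dbp. Bhlhe40, which competes for E-boxes, had r = 0.58 with Per2 (limma adjusted p = 0.125, or 0.549 with the sample number in the model) and a slope of 0.0089 on the number (limma adjusted p = 0.202).

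The genes outside the clock whose levels were most like those of Dbp across the 30 mice, among 8831 genes, were Mob1a (r = 0.73), Kazn (0.71), Nacc2 (0.68), Ednrb (0.67) and Nup85 (0.65). The lowest were Mylk (r = -0.62) and Crym (-0.61). Most like Arntl were Rprd1a (r = 0.71), Umps (0.67) and Spryd7 (0.66), and least like it Pex13 (r = -0.69), Tkt (-0.65) and Tkfc (-0.65). No member reached an r of that size with Dbp or Arntl: the highest for Dbp was Nr1d2 at 0.41 and the lowest for Arntl was Nr1d1 at -0.41. The listed genes were picked as the extremes of 8831, so this comparison says little about the members. The oligodendrocyte and thalamus marker means had r = 0.51 and 0.50 with Dbp, and the endothelium and hippocampal neuron marker means both had r = -0.41 with it. The thalamus list includes Rora, which is also among the further clock genes and had r = 0.38 with Dbp. The hippocampal neuron mean had r = -0.48 with Per1. The part of tissue composition in the members' levels was not tested.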

How the data were processed

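Hippocampal RNA of 30 mice was hybridised to Illumina bead arrays of 1 colour, 1 per mouse. The authors deposited log2 signals, unnormalised per the file headers, with a detection p-value for each probe, and processed log2 values with equal distributions in every column. The submitters' processing notes name lumi, and its role is not given in the sources used here. Signals were corrected and quantile-normalised here with neqc (offset 16) in limma 3.58.1 (R 4.3.3). Probes with a detection p under 0.05 on at least 15 of 30 arrays were kept. Fits used lmFit and eBayes with an intensity trend, and Benjamini-Hochberg adjustment over all kept probes. Slopes on Arntl, Clock, Per2 or the sample number had group as a covariate, and correlations used group-centred values, with mice permuted within groups. A gene is represented by its brightest kept probe. Motifs were searched in the RefSeq start regions. Nothing says that the samples are other than separate mice, and the number of arrays limits the precision. All probes of the 10 genes are named whatever their values, with the further clock genes at an unadjusted p under 0.05, genes named for stated roles, and the highest and lowest correlations. Ciart, Bhlhe40, Egr1, Fos and Tsc22d3 were singled out after their values were seen. The members and lists were chosen with earlier results of these data known. The fit was tested on simulated data. Alternatives were the authors' processed values, median scaling, leaving out the background correction, other filters, array weights, a robust prior, blocks, covariates, parts of the series and leaving out each mouse. Samples with the same replicate number in both groups were not treated as pairs in the main fits. A check of whether they deviate together is given below.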

Additional observations from a re-analysis of the deposited data

How the results depend on the processing

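With 15 alternative settings, 0 member probes passed between the groups in 14 of them, and 1 passed within sample numbers 17 to 30 (the second Per2 probe, 0.51). Leaving out each of the 30 mice in turn gave 0 passing probes each time, with 2 to 5 at an unadjusted p under 0.05, and a Per2 difference of 0.24 to 0.31 (limma adjusted p from 0.232 to 0.55). Across the settings the Per2 difference ran from 0.13 (numbers 1 to 16) to 0.43 (numbers 17 to 30). The replicate number as a block, which joins the resistant and the responder mouse of the same number, gave 0.27 (limma adjusted p = 0.276). A check of such mice gave same-number correlations of -0.32 to 0.28, with a median of 0.11. Of these, 8 of 15 were over 0.1, and 4 of 15 resistant mice were closest to their own number. Whether these values exceed those of mice not joined by number was not tested. The count on the sample number, 1, was 0 with median scaling (Per2 limma adjusted p = 0.0589) and 0 in resistant or responder mice alone, where fewer mice enter; it was 1 without each mouse in turn (limma adjusted p from 0.0094 to 0.0499). With the replicate block the number could not be fitted, as group and replicate determine it. Counts on Arntl, on Clock and for the difference in slope were 0 in every setting run. With median scaling the slope on Arntl went from -0.38 to -0.23 for Dbp and from -0.40 to -0.24 for Per1. Several estimates turned sign, and the cause was not tested. Not all were near 0: in the main fit the slope of Tef on Clock was 0.25 and that of Cry2 on Arntl -0.19. The Nr1d2 difference was 0.029 with median scaling, 0.012 with array weights, 0.0069 with the sample number, 0.0098 in numbers 1 to 16 and 0.048 with Dbp as a covariate, and -0.035 to 0.028 without each mouse. That of Arntl was -0.0011 with array weights, -0.011 with Dbp and -0.0075 to 0.041 without each mouse, and that of Tef -0.039 in numbers 17 to 30. Slopes on Arntl turned for Cry2 (0.024 with median scaling, 0.12 in responders), Tef (0.048 with median scaling, 0.014 with the replicate block, -0.21 to 0.046 without each mouse), Per2 (0.34 with the replicate block, 0.021 with the sample number), Per3 (0.083 with the sample number, 0.40 in resistant mice, -0.23 to 0.11 without each mouse) and Nr1d2 (0.063 in resistant mice). Slopes on Clock turned for Cry2 (0.34 with median scaling, 0.0031 with choroid plexus, 0.0074 in resistant mice, -0.15 to 0.041 without each mouse), Tef (-0.26 with the replicate block) and Per3 (0.31 in responders, -0.32 to 0.010 without each mouse). Median scaling shifted the median of all probes from 0.0070 to 0.03 between the groups. Signal near background limits Per3 and the dim probes of Nr1d2 and Tef. The slope on Per2 and the values within parts of the sample numbers for correlations were added after the data were seen.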
